A study of Mus musculus with 20 samples.

Results

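The P2Y receptors are G protein-coupled receptors for nucleotides outside the cell, and 7 of them, chosen by gene symbol, were followed in islet RNA from mice lacking one of the family, P2Y14. The members were P2ry14, P2ry1, P2ry2, P2ry4, P2ry6, P2ry12 and P2ry13, 7 of the 26211 genes in the table, and all of them were found there. Islets of P2Y14-knockout mice gave 10 libraries and islets of wild-type mice gave 10, all from animals of the labelled strain C57BL/6 x 129S6. Every pancreas was digested with Liberase, and the islets were picked by hand and cultured overnight in RPMI-1640 with serum before RNA was taken. The labels give neither age nor sex, nor the part of P2ry14 that was deleted, nor whether libraries came from separate animals, and p-values therefore measure the spread between these libraries.

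P2Y1, P2Y2, P2Y4 and P2Y6 couple to Gq, which activates phospholipase C and raises cytosolic calcium, whereas P2Y12, P2Y13 and P2Y14 couple to Gi, which lowers cyclic AMP. P2Y14 answers to UDP-glucose, other UDP-sugars and UDP, P2Y6 to UDP, P2Y2 and, in mice, P2Y4 to both UTP and ATP, and P2Y1, P2Y12 and P2Y13 to ADP. In islets, ATP is stored in insulin granules and leaves beta cells together with insulin, so islet cells are exposed to nucleotides while they secrete.

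All 7 genes carry, in the coding sequence of the sixth transmembrane helix, the His-X-X-Arg or His-X-X-Lys motif that marks the family. A stretch of 30 bases around it is shown for each, because it lets the 7 coding sequences be compared at the same place. The stretches are from GENCODE M21 transcripts on GRCm38, 5′ to 3′ on the coding strand, with the 4 codons of the motif in capitals.
P2ry14: tttgtgccttacCACATTGCCAGAatcccc
P2ry12: tttgttcccttcCACTTTGCACGGattccc
P2ry13: tttgccccactgCATTTTGTCAGAatacca
P2ry1: tatatccctttcCATGTGATGAAAacgatg
P2ry2: ttcctgcctttcCACCTCACGCGCaccctc
P2ry4: tttgtgcctttcCACATCACCCGCacaatt
P2ry6: ttcctgcctttcCACATCACCAAGacagcc
The last capital codon is a lysine codon in P2ry1 and P2ry6 and an arginine codon in the other genes. Over the whole coding sequence, P2ry14 was 56.6% identical to P2ry12 and 56.8% identical to P2ry13, against 48.1% to P2ry6, the other UDP receptor. The highest identity between members was 61.1%, between P2ry2 and P2ry4, and the longest run of identical bases shared by any pair was 19 bases, between P2ry1 and P2ry2. P2ry14, P2ry12, P2ry13 and P2ry1 are on chromosome 3, P2ry2 and P2ry6 on chromosome 7, and P2ry4 on chromosome X.

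Library depth ranged from 34520628 to 199847246 reads over genes and both ends were knockout libraries, the median being 92323083 for the knockout and 105776893 for the wild-type group. Within groups, each of the 90 possible pairs differed beyond sampling noise. Values below are normalized read counts, that is reads per gene divided by a size factor for the library. In the fit across all genes, 49 of 17482 genes tested, 0.28%, had an adjusted p under 0.05 between knockout and wild-type islets, 28 higher and 21 lower in knockout. Marker genes of acinar cells, the enzyme-secreting cells around the islets, varied widely: their summed level ran between 1528920 and 21663800 among knockout libraries and between 1507580 and 17410600 among wild-type libraries. Beta cell markers, led by Ins2 (insulin), had a mean log2 level of 14.54 ± 0.17 in knockout and 14.71 ± 0.25 in wild-type libraries, and 8 of 12 had negative log2 fold changes. The mean of Ins2 itself lay the other way, at 26673100 ± 7544680 normalized reads in knockout and 23707700 ± 6243960 in wild-type libraries. Alpha cell markers, led by Gcg (glucagon), had a mean log2 level of 11.45 ± 0.41 in knockout and 11.82 ± 0.26 in wild-type libraries, and delta and PP cell markers 11.13 ± 0.37 in knockout and 11.73 ± 0.13 in wild-type libraries (SD, n = 10 each). Of all 12 marker lists, 1 gene, Ptprz1 of the delta and PP cell list, had an adjusted p under 0.05, and all 8 genes of that list had negative log2 fold changes. Other lists leaned the other way, with positive log2 fold changes in 13 of 14 acinar, 9 of 10 duct and 15 of 20 macrophage and dendritic cell markers. In such bulk RNA, fewer cells of a type and less RNA per cell cannot be told apart.

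P2ry14 (ENSMUSG00000036381) was the member with the largest difference. Knockout islets had between 0 and 113.5 normalized reads with a median of 44.8, against between 79.7 and 262.1 with a median of 118 in wild-type islets. All 10 knockout libraries lay below the wild-type median and 8 lay below the lowest wild-type library, but the groups overlapped, since knockout replicates 2 and 10, at 113.5 and 86.0, lay above the lowest wild-type library, number 12, at 79.7. The mean was 51.2 ± 31.4 in knockout and 151 ± 67.4 in wild-type islets (SD, n = 10 each), a ratio of 0.340, and the knockout libraries together still held 479 P2ry14 reads, against 1954 in the wild-type libraries.

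The P2ry14 means differed by -99.4 normalized reads, and permuting the group labels, two-sided, gave p = 0.00018. In limma's fit across all genes P2ry14 had a log2 fold change of -1.97 (95% interval -3.18 to -0.75), with p = 0.00291 before adjustment and an adjusted p of 0.244, so that it did not pass the threshold over 17482 genes. Knockout replicate 5 had the fewest reads over genes, but its size factor, 0.650, was above those of replicates 6 (0.389) and 7 (0.491). Those 2 held 24 P2ry14 reads each. Replicate 5 had 0 P2ry14 reads, which allows up to 4.62 normalized reads, and 605 P2ry1 and 215 P2ry6 reads. Without that library the log2 fold change was -1.39 with an adjusted p of 0.0283 in limma, in a fit that called 0.378% of genes. With the acinar marker score as a covariate the values were -2.10 and 0.0354 in limma (0.429% of genes called), and with DESeq2 on the recovered reads -1.56 and 0.0144 (0.784% of genes called). With edgeR's quasi-likelihood test on the same reads the adjusted p was 0.179. The values sum over the whole gene, and where in P2ry14 the remaining knockout reads lay was not analysed here.

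**Figure D1:**
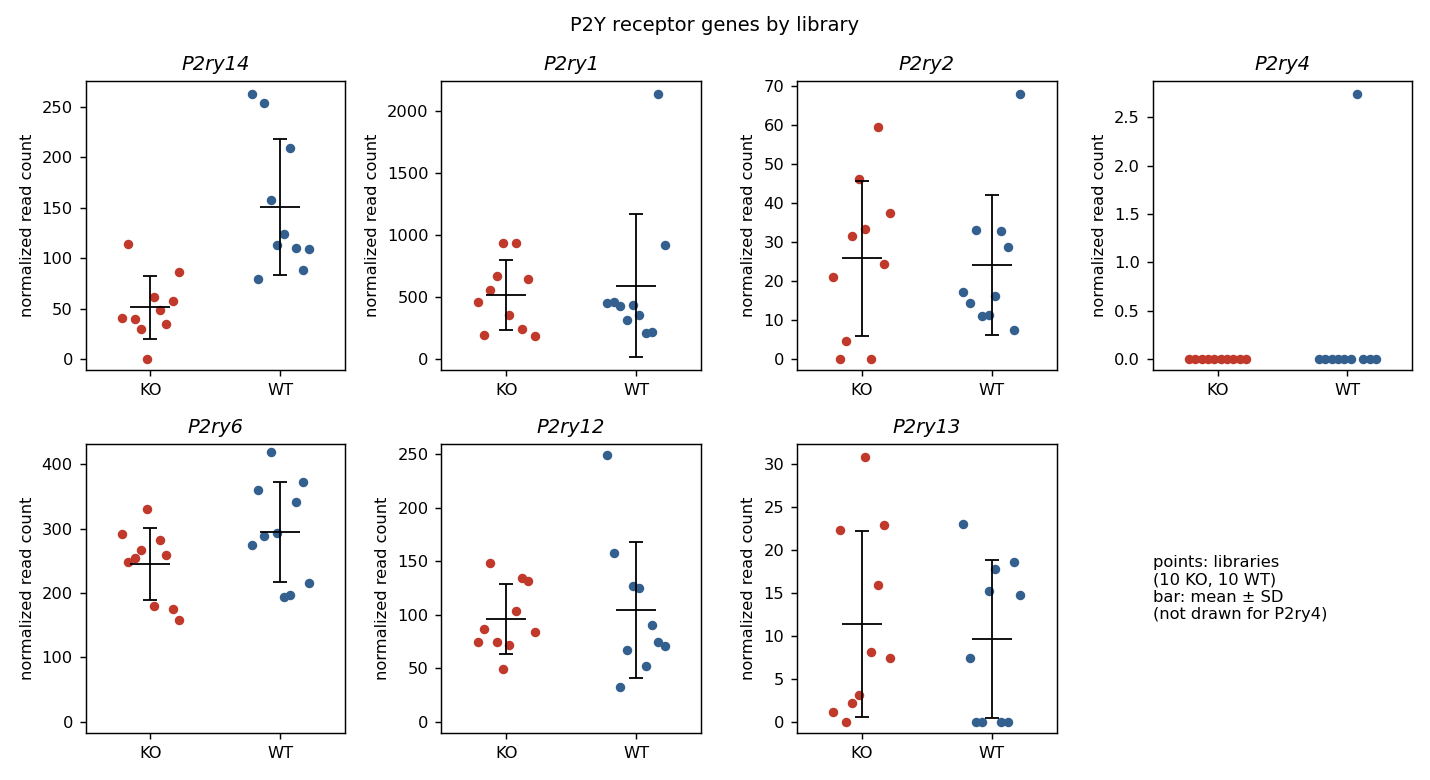
Normalized read count (vertical axis, scaled separately for each gene) of the 7 P2Y receptor genes in 10 knockout (KO, red) and 10 wild-type (WT, blue) libraries, with the mean and SD as bars, not drawn for P2ry4. P2ry14 has 8 of 10 knockout points below the lowest wild-type point. For P2ry1, P2ry2, P2ry6, P2ry12 and P2ry13 most points of each group lie within the range of the other group.

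Among the other members, 5 passed the filter on low values and none had an adjusted p under 0.05, so 0 of the 6 members tested were called, against 0.28% of all genes. P2ry6, the UDP receptor of the Gq group and thus the member that shares a ligand with P2Y14, had between 159 and 331 normalized reads with a median of 257 in knockout islets, against between 194 and 419 with a median of 291 in wild-type islets. In knockout islets 3 libraries lay below every wild-type library, and 4 wild-type libraries lay above every knockout library, while the rest overlapped. The means were 245 ± 55.9 in knockout and 296 ± 77.7 in wild-type islets (SD, n = 10 each), with a log2 fold change of -0.26 and an adjusted p of 0.675 in limma. The 95% interval of the fold ran between 0.655 and 1.06, so the upper bound for a higher P2ry6 level in knockout islets was 1.06-fold. All 32 other settings gave a negative log2 fold change for P2ry6, between -0.32 and -0.19, none of them past the threshold.

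P2ry1, the Gq-coupled ADP receptor, had between 187 and 936 normalized reads with a median of 508 in knockout islets, against between 211 and 2131 with a median of 433 in wild-type islets. Most libraries of both groups fell in the same range, and wild-type library 19 stood far above the others at 2131, with wild-type library 20 next at 915. The log2 fold change was -0.04 with an adjusted p of 0.989 in limma, and the 95% interval of the fold ran between 0.561 and 1.70. Its sign was not stable: without wild-type library 19 the log2 fold change was 0.21. P2ry2, the receptor for ATP and UTP, was low, at 0 to 59.7 normalized reads (median 28.0) in knockout and 7.47 to 67.9 (median 16.7) in wild-type islets. It had no read in knockout replicates 2 and 7 and was highest in wild-type library 20. In all, 3 knockout libraries lay below the lowest and 1 wild-type library above the highest of the other group, and the rest overlapped. The mean was 25.8 ± 19.98 in knockout and 24.1 ± 17.97 in wild-type islets (SD, n = 10 each), a ratio of 1.07, whereas the log2 fold change was -0.53 (adjusted p = 0.855 in limma), and it was 0.11 with both edgeR and DESeq2, so no direction can be given. The interval of the fold ran between 0.248 and 1.95.

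P2ry4, a receptor for UTP best known from epithelia of the gut, had no read in any knockout library and 2 reads in 1 wild-type library, number 17, which stood at 2.74 normalized reads. It was below the filter and was not tested, and a count of 0 allows 3 reads per library, a floor that covers counting error only.

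The Gi-coupled ADP receptors P2ry12 and P2ry13 are the closest relatives of P2ry14 by sequence and its neighbours on the chromosome. P2ry12, the platelet receptor blocked by clopidogrel and a marker of microglia, had between 49.2 and 148 normalized reads (median 85.3) in knockout islets, against between 32.3 and 249 (median 82.4) in wild-type islets. The knockout range lay inside the wild-type range, whose highest library was number 11 and lowest number 13. The log2 fold change was 0.02 with an adjusted p of 0.992 in limma, and the interval of the fold ran between 0.662 and 1.56. P2ry13 had between 0 and 30.8 normalized reads (median 7.81) in knockout islets, against between 0 and 23.0 (median 11.1) in wild-type islets. It had under 3 reads in 3 knockout and 4 wild-type libraries. Its log2 fold change was 0.50 with an adjusted p of 0.886 in limma. Its interval was the widest of the family, between 0.434-fold and 4.64-fold. That interval held both lower and higher levels in knockout islets, so no direction can be given for P2ry13.

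**Figure D2:**
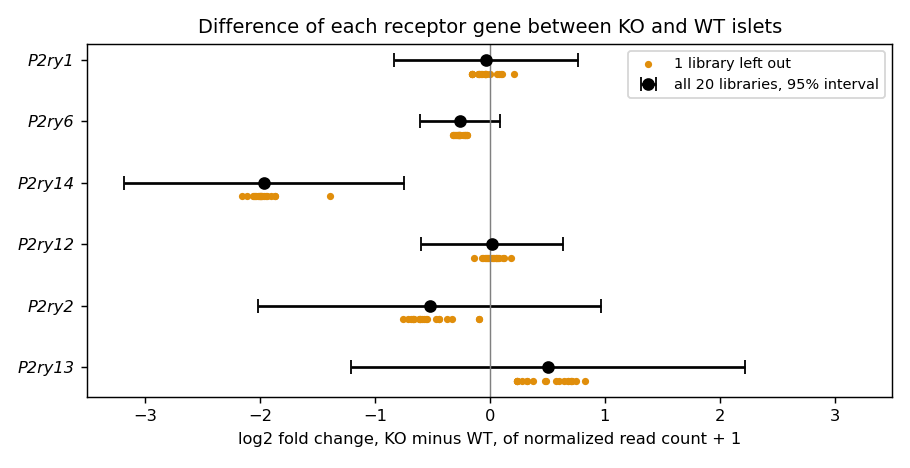
Log2 fold change, knockout minus wild-type, of the normalized read count + 1 (horizontal axis) for the 6 members tested, with the 95% interval over all 20 libraries in black and the 20 values with 1 library left out in orange. Of the 6 intervals, only that of P2ry14, between -3.18 and -0.75, does not reach 0, and its value nearest 0 is the one without knockout replicate 5.

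P2ry14, P2ry12 and P2ry13 all lie inside Med12l, a gene of the Mediator complex family, on its opposite strand, and the library kit does not mark strand. Annotated exons of Med12l shared 9 bases with P2ry12 and 0 bases with P2ry14 and P2ry13. Med12l had 939 ± 311 normalized reads in knockout and 1086 ± 386 in wild-type islets (SD, n = 10 each; log2 fold change -0.19, adjusted p = 0.832 in limma). With the group means removed, r over the 20 libraries between Med12l and these members was -0.27 for P2ry14, 0.30 for P2ry12 and -0.08 for P2ry13, and none of the 3 relations passed (permutation test, adjusted p between 0.373 and 0.753). P2ry1 shares 992 of its 4291 exon bases with an antisense gene, Gm37035. Without strand, reads from those shared bases cannot be told apart from reads of that gene.

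Divided by the length of annotated exon, P2ry1 and P2ry6 were the most abundant receptors of the family. P2ry1 had 121 ± 65.3 normalized reads per kilobase in knockout and 138 ± 134 in wild-type islets, and P2ry6 had 84.9 ± 19.4 in knockout and 102 ± 26.9 in wild-type islets (SD, n = 10 each). Those neighbours did not differ beyond their spread, P2ry1 being the higher one in 7 of 10 knockout and 5 of 10 wild-type libraries. P2ry12 followed at 37.7 ± 12.7 per kilobase in knockout and 41.1 ± 24.9 in wild-type islets, below P2ry6 in 10 of 10 knockout and 9 of 10 wild-type libraries.

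P2ry14 had 4.63 ± 2.83 normalized reads per kilobase of exon in knockout and 13.6 ± 6.09 in wild-type islets, and it ranked number 5 of the 7 in knockout and number 4 in wild-type islets. It lay below P2ry2 in 7 of 10 knockout libraries and above P2ry2 in 9 of 10 wild-type libraries. P2ry2 averaged 6.57 ± 5.09 per kilobase in knockout and 6.12 ± 4.58 in wild-type islets, and P2ry13 4.51 ± 4.31 in knockout and 3.83 ± 3.64 in wild-type islets. P2ry14 against P2ry13 in knockout islets, and P2ry2 against P2ry13 in wild-type islets, stood in this order in 6 of 10 libraries, so these neighbours did not differ beyond their spread. The place of P2ry14 also depends on the length used: its annotated exons span 11059 bases, of which 1041 are coding, and per kilobase of coding sequence its mean was 49.2 ± 30.1 in knockout islets, below P2ry12 at 92.1 ± 31.1, and 145 ± 64.7 in wild-type islets, above P2ry12 at 100.4 ± 60.9 (SD, n = 10 each).

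As a share of the family's summed level per kilobase of exon, P2ry14 made up 2.16% ± 1.82 in knockout and 5.30% ± 3.20 in wild-type islets, P2ry1 43.6% ± 13.5 in knockout and 39.7% ± 15.8 in wild-type islets, and P2ry6 33.8% ± 7.33 in knockout and 36.8% ± 12.2 in wild-type islets (SD, n = 10 each). The members other than P2ry14 summed to 254 ± 73.6 normalized reads per kilobase in knockout islets, between 144 and 364, against 291 ± 143 in wild-type islets, between 147 and 664. The medians lay the other way, at 260 in knockout and 255 in wild-type islets, the highest sum being that of a wild-type library, and the ranges overlapped. The UDP receptors P2ry6 and P2ry14 together had 89.5 ± 17.8 per kilobase in knockout and 116 ± 25.9 in wild-type islets. These shares and sums depend on the length used, because P2ry14 has the longest annotated exons of the family. Per kilobase of coding sequence, P2ry14 had 145 ± 64.7 and P2ry6 300 ± 79.0 in wild-type islets. In knockout islets they had 49.2 ± 30.1 and 249 ± 56.9. Shares by coding length were not computed. The remaining Gi-coupled members, P2ry12 and P2ry13, had 42.2 ± 13.7 together in knockout and 44.9 ± 27.4 in wild-type islets, the median being 41.6 for knockout and 36.1 for wild-type libraries.

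**Figure D3:**
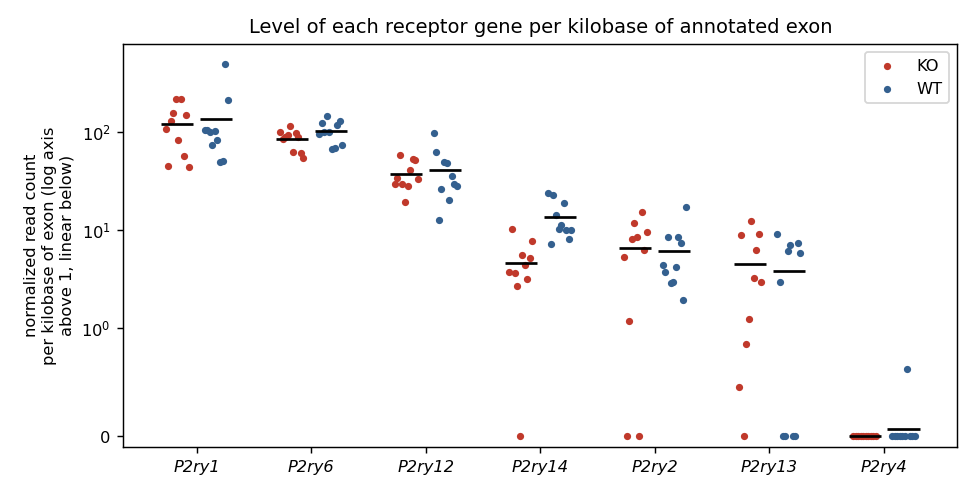
Normalized read count per kilobase of annotated exon (vertical axis, logarithmic above 1 and linear below) of the 7 members, each point a library, knockout (KO, red) left of wild-type (WT, blue), with means as lines. P2ry1 and P2ry6 lead in both groups, and P2ry14 has a mean of 4.63 in knockout and 13.6 in wild-type islets.

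Which cells each receptor gene goes with was asked by relating its log2 level to the mean log2 level of 12 lists of cell marker genes. The 20 libraries were used, with the group means removed so that the mean difference between genotypes does not enter. Relations can still differ between knockout and wild-type libraries. There were 72 relations for the 6 members tested, of which 5 had an adjusted p under 0.05 in a permutation test of Pearson's r and 3 in one of Spearman's rho. The libraries share their normalization and, within a pancreas digest, all cell types, so that marker lists also vary together.

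P2ry14 went with acinar cell markers, a list led by the digestive protease gene Ctrb1. Pearson's r was 0.684 over 20 libraries (permutation p = 9e-05, adjusted p = 0.00216) and Spearman's rho was 0.669 (permutation p = 0.00086, adjusted p = 0.0206). Pearson's r was 0.763 within knockout and 0.778 within wild-type libraries. The within-knockout value includes replicate 5, which had no P2ry14 read, and was not computed without it. Over both groups r was 0.575 without the 2 libraries farthest from the median of the acinar score. With any 1 library left out it was between 0.664 and 0.732, past the threshold in all 20 of those fits. Without removal of the group means r was 0.508 with an adjusted p of 0.165 by permutation. The libraries with the lowest acinar score in their groups were knockout replicate 5 and wild-type library 12, which also had the lowest P2ry14 values of their groups, 0 and 79.7. The libraries with the highest acinar score were knockout replicate 6, where P2ry14 stood at 61.7, and wild-type library 13, where it stood at 253. The acinar score itself was 16.58 ± 1.11 in knockout and 16.43 ± 1.09 in wild-type libraries (mean log2 level, SD, n = 10 each), and the P2ry14 difference between knockout and wild-type islets was as large with the score as a covariate, as given above. No islet cell list passed with P2ry14, and r was -0.13 for beta cell and -0.44 for alpha cell markers. Duct cell markers did not pass either (r = 0.25, adjusted p = 0.569 by permutation). Their r was 0.137 within knockout libraries but 0.70 within wild-type libraries, near the 0.778 of acinar markers there. Within wild-type libraries the acinar relation thus does not stand apart from the duct one.

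P2ry2 went with endothelial and mesenchymal markers. Its r was 0.802 with endothelial cell markers, led by Pecam1 (permutation p = 5e-05, adjusted p = 0.0018; rho 0.754, adjusted p = 0.00684). It was 0.693 with markers of mesenchymal, stellate and smooth muscle cells, led by the collagen gene Col3a1 (permutation p = 4e-05, adjusted p = 0.0018; rho 0.731, adjusted p = 0.00684). Both relations were positive within each group, at 0.866 within knockout and 0.649 within wild-type libraries for endothelial markers, and at 0.889 within knockout and 0.661 within wild-type libraries for mesenchymal markers. Without the 2 farthest libraries r was 0.774 for endothelial and 0.714 for mesenchymal markers, and both relations passed with any 1 library left out. Without removal of the group means the endothelial relation passed (adjusted p = 0.0036 by permutation) and the mesenchymal one did not (adjusted p = 0.0608). Duct cell markers had r = 0.507 with P2ry2 (permutation p = 0.00858, adjusted p = 0.0772; rho 0.556), which did not pass. With the acinar score removed by regression, r with P2ry2 was 0.746 for duct markers (adjusted p = 0.0011 by permutation), 0.824 for endothelial and 0.748 for mesenchymal markers. The endothelial score was lowest in knockout replicate 7 and wild-type library 19, which had the lowest P2ry2 values of their groups, 0 (shared with replicate 2) and 7.47.

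Macrophage and dendritic cell markers (r = 0.631, permutation p = 0.00295, adjusted p = 0.0425; rho 0.613, adjusted p = 0.0805) and macrophage genes of the microglia-like list (r = 0.636, permutation p = 0.00222, adjusted p = 0.040; rho 0.621, adjusted p = 0.0791) passed with P2ry2 by r and not by rho. The first was 0.775 within knockout and 0.398 within wild-type libraries, and 0.625 without the 2 farthest libraries. The second was 0.780 within knockout and 0.421 within wild-type libraries, and 0.460 without the 2 farthest libraries. With 1 library left out, the first passed in 6 and the second in 10 of the 20 fits. P2ry2 is known from endothelium, smooth muscle, epithelium and leukocytes.

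**Figure D4:**
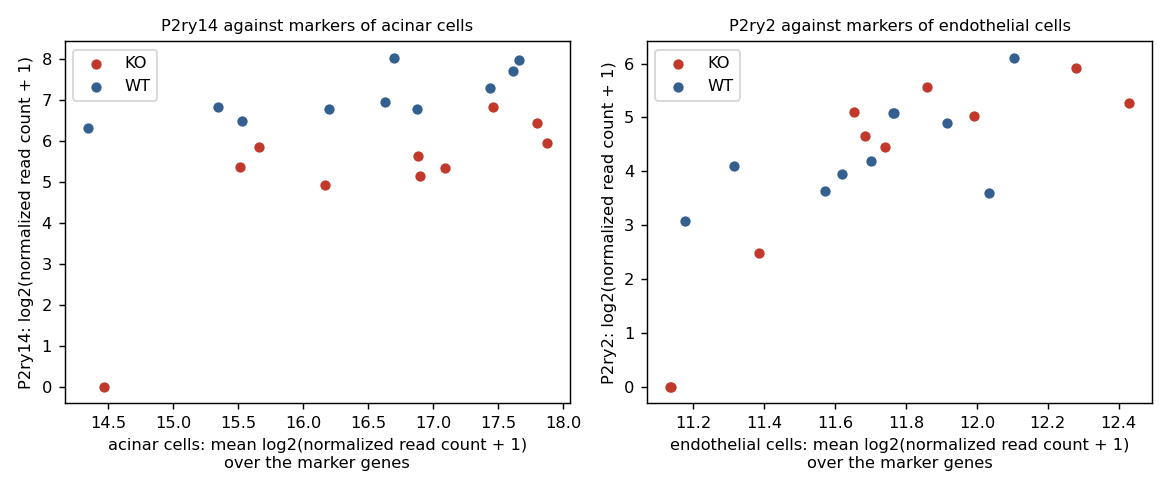
Left, log2(normalized read count + 1) of P2ry14 against the mean log2 level of 14 acinar marker genes; right, the same for P2ry2 and 13 endothelial marker genes; each point is a library, knockout (KO) red and wild-type (WT) blue. P2ry14 is higher where acinar markers are higher in both groups, with knockout replicate 5 at 0, and P2ry2 is higher where endothelial markers are higher, with knockout replicates 2 and 7 on top of each other at 0.

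P2ry1 ran against exocrine markers, without passing the threshold: r was -0.623 with duct cell markers (permutation p = 0.00524, adjusted p = 0.0629; rho -0.579) and -0.570 with acinar markers (permutation p = 0.0116, adjusted p = 0.0927; rho -0.635). With alpha cell markers its r was 0.40, at 0.86 within knockout and -0.21 within wild-type libraries. With beta cell markers it was 0.29, at 0.698 within knockout and 0.044 within wild-type libraries. Neither relation passed (adjusted p = 0.34 for alpha and 0.58 for beta cell markers by permutation). P2ry6 had its most negative values with duct (-0.440) and acinar markers (-0.412), with an adjusted p of 0.328 and 0.341 by permutation, and 0.11 with beta cell markers. P2ry12 had its highest r, 0.478, with beta cell markers (permutation p = 0.0569, adjusted p = 0.328), at 0.065 within knockout and 0.647 within wild-type libraries. Although P2ry12 marks microglia in the brain, its r was -0.07 with the microglia-like list and -0.06 with macrophage and dendritic cell markers. P2ry13, also known from macrophages, had -0.02 and -0.09 with the same lists, and no list passed with it. Of the lists, B lymphocytes rested on 3 tested genes and T and NK lymphocytes on 2, so these values say little.

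**Figure D5:**
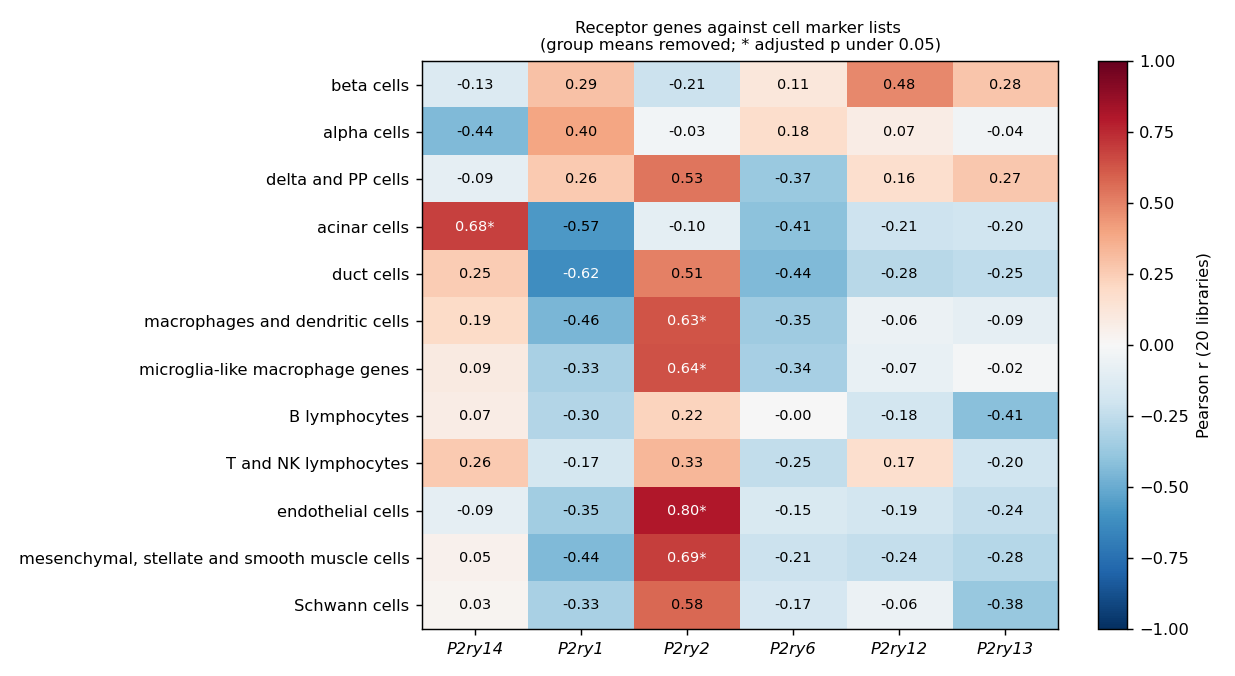
Pearson's r over 20 libraries, group means removed, between the log2 level of each of 6 members (columns) and the mean log2 level of each of 12 marker lists (rows), with an asterisk where the adjusted p is under 0.05. The 5 asterisks are P2ry14 with acinar cells and P2ry2 with endothelial, mesenchymal, macrophage and microglia-like lists.

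Among themselves the members gave 15 pairs, and no pair passed after adjustment (2 had an unadjusted permutation p under 0.05). P2ry14 had r = -0.453 with P2ry1 (permutation p = 0.0156, adjusted p = 0.212; rho -0.481) and r = -0.441 with P2ry6 (permutation p = 0.0283, adjusted p = 0.212; rho -0.541), over 20 libraries with the group means removed. The first was -0.571 within knockout and -0.404 within wild-type libraries, and the second -0.589 within knockout and -0.293 within wild-type libraries. With the acinar score removed by regression, r was -0.10 for P2ry14 with P2ry1 and -0.24 for P2ry14 with P2ry6. The neighbours P2ry12 and P2ry13 had r = 0.468 (permutation p = 0.0539, adjusted p = 0.269), at 0.047 within knockout and 0.671 within wild-type libraries.

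The genes whose level was most like each member's are given as a description, by the 4 highest Pearson's r over the 20 libraries among at least 13532 genes, with the group means removed. For P2ry14 they were Slc22a18, a transporter of the organic cation family (0.934), Gjb2, the gap junction protein connexin 26 (0.910), Extl1, a glycosyltransferase gene (0.901), and Eci3, an enoyl-CoA isomerase (0.893). All 4 had no read in knockout replicate 5, as P2ry14 had, and without it r was 0.564 for Slc22a18, 0.752 for Gjb2, 0.651 for Extl1 and 0.408 for Eci3. For P2ry1 they were Rbm14, an RNA-binding coactivator (0.940), Tat, tyrosine aminotransferase (0.908), Morf4l2, a chromatin protein (0.886), and Slc38a4, an amino acid transporter (0.883). Each of these 4 was highest in wild-type library 19 among wild-type libraries, where P2ry1 was also highest, and in knockout replicate 5 among knockout libraries; Rbm14 stood at 4701 in that wild-type library, against a wild-type median of 2197. Within the groups r stayed between 0.854 and 0.917 in knockout and between 0.885 and 0.965 in wild-type libraries for these 4 genes.

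For P2ry2 the most alike genes were Masp1, a protease of the lectin complement pathway (0.919), Blnk, an adaptor of B cell receptor signalling (0.898), Nrip2 (0.857) and the serpin Serpinb6b (0.832), with r between 0.411 and 0.648 within wild-type libraries. For P2ry6 they were Plppr2 (0.851), Mir1906-1 (0.836), Mir770 (0.826) and Phf21b (0.809). The rows of Mir1906-1 and Mir770 are annotated within Meg3, an imprinted long noncoding RNA gene on chromosome 12, so that reads of the Meg3 transcript cannot be told apart from those of the miRNA precursors, and no mature miRNA was measured. For P2ry12 they were Pias2, a SUMO ligase (0.766), Rfk, riboflavin kinase (0.757), Asah1, acid ceramidase (0.751), and Rnf11 (0.751). P2ry13, with its few reads, had the lowest r, led by Sc5d, a sterol desaturase (0.715), and Otud5, a deubiquitinase (0.711), before Prelid3b (0.704) and Hsdl2 (0.703).

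The genes that act with these receptors were read from 9 lists, of which 122 genes were tested. None had an adjusted p under 0.05 in limma, against 0.28% of all genes, while all genes had a median of -0.002 on the log2 scale. Of the Gq proteins and phospholipase C beta list, through which P2Y1, P2Y2, P2Y4 and P2Y6 signal, 12 of 15 genes had negative and 3 positive log2 fold changes, with a median of -0.10. Its most abundant gene, Itpr1, the inositol trisphosphate receptor that releases calcium from stores, had 12212 ± 3491 normalized reads in knockout and 19711 ± 4634 in wild-type islets (SD, n = 10 each; log2 fold change -0.70, 95% interval -1.04 to -0.37, adjusted p = 0.0662 in limma). It passed in 4 other settings, with an adjusted p between 0.00649 (library weights) and 0.0472 (endothelial score as a covariate), and when knockout replicate 1, knockout replicate 5 or wild-type library 14 was left out. Prkcd, a protein kinase C, differed by -0.10 on the log2 scale (adjusted p = 0.806 in limma).

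Of the Gi proteins and their effectors, the class to which P2Y14 couples, 13 of 17 genes had negative log2 fold changes, with a median of -0.13. Gnas, the stimulatory G protein alpha subunit listed with them for its opposite effect on cyclic AMP, had 256732 ± 35426 normalized reads in knockout and 321472 ± 41133 in wild-type islets (SD, n = 10 each; log2 fold change -0.33, adjusted p = 0.398 in limma). Gnai2, an inhibitory alpha subunit, had -0.15 (adjusted p = 0.729 in limma). In the list of receptor kinases, arrestins and RGS proteins, which end receptor signals, 9 of 14 genes had positive log2 fold changes, with a median of 0.07, and the most abundant, Grk2 and Arrb2, had -0.04 and 0.08.

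The supply of ligand showed no called gene either. Nucleotide release and UDP-sugar genes, 25 tested, had a median of 0.05, with Uggt1, which uses UDP-glucose in the endoplasmic reticulum, at -0.03 and Nme1, a nucleoside diphosphate kinase, at 0.09. The ectonucleotidase list, named for enzymes that break nucleotides down outside cells, had a median of -0.06 over 15 genes. Its most abundant genes were Enpp2 and Enpp5, whose action on nucleotides in islets was not measured. Enpp2 had 15573 ± 4221 normalized reads in knockout and 15358 ± 4533 in wild-type islets (SD, n = 10 each), a difference of 0.02 on the log2 scale, and Enpp5 differed by -0.20 (adjusted p = 0.429 in limma).

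Among the other purine receptors, the P2X channels had 4 of 6 genes with negative log2 fold changes and a median of -0.36, although the most abundant, P2rx4 and P2rx1, had 0.14 and 0.22. All 3 adenosine receptor genes tested had negative values. Adora1 had 859 ± 190 normalized reads in knockout and 1142 ± 271 in wild-type islets (SD, n = 10 each; log2 fold change -0.41, adjusted p = 0.379 in limma), and Adora2a had -0.04. Adora3, chosen after its values were seen, had between 0 and 149 normalized reads in knockout and between 40.3 and 239.8 in wild-type islets, with means of 33.9 ± 48.1 in knockout and 105 ± 60.8 in wild-type islets (SD, n = 10 each), a log2 fold change of -3.29, an unadjusted p of 0.00123 and an adjusted p of 0.157 in limma. Of 13 receptor genes related to the P2Y group by sequence, 6 had positive and 7 negative values, the most abundant being Lpar6, a lysophosphatidic acid receptor (0.26), and F2r, a thrombin receptor (-0.25). The 15 tested genes around P2ry14 on chromosome 3 had a median of 0.06 and none was called. The most abundant of them, Tm4sf4 and Serp1, had log2 fold changes of 0.06 and 0.17.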

How the data were processed

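The authors deposited one table of DESeq-normalized read counts per gene for the 20 libraries, per its name; the deposited values were handled as a signal unit, gene reads divided by a library size factor. The submitters' processing notes list, with no roles, build mm9 and DESeq 1.16.0, Cufflinks 1.3.0, Bowtie 0.9.9, TopHat 1.3.3 and FastQC. The read counter and its annotation are not named in the labels or the table. Libraries were made with the TruSeq RNA v2 kit, per the labels' protocols. Knockout columns carry the labels' replicate numbers; wild-type columns are numbered 11 to 20 and were used as group members.

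Each column's values were whole multiples of 1 step, and 100% gave whole reads within 0.05 reads (values of up to 10000 reads, all 20 columns), which gave depth and the reads for edgeR and DESeq2. Names, exon lengths, overlaps and sequences came from GENCODE M21 (GRCm38), so no coordinates are printed, and 23950 genes were named.

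Groups were compared with limma 3.58.1 (R 4.3.3, lmFit, eBayes with a trend) on log2(value + 1), over 17482 genes whose mean reached 10, with Benjamini-Hochberg adjustment over all of them. Fold changes are given on this log2(value + 1) scale, where the pseudocount shrinks changes of genes low in all libraries and single libraries near 0 can widen a difference beyond the ratio of means, as for P2ry14. Correlations used 100000 permutations within groups (Python 3.11.15, numpy 2.4.6), adjusted over 72 marker and 15 pair relations. Alternatives were pseudocounts of 0.5 and 10, quantile normalization, TMM factors, no filter or a mean of at least 100, library weights, 3 marker scores as covariates, edgeR 4.0.16, DESeq2 1.42.0 and each library left out in turn.

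The members, lists and tests were chosen with earlier results of these data known. Named genes are the members, the 2 most abundant genes of each pathway list and any past the threshold, the 4 genes most like each member (mean of at least 50) and the most abundant gene of the marker lists. Intervals and floors cover counting error only where they rest on reads of 1 library.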

Additional observations from a re-analysis of the deposited data

Results flagged for a closer look

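Of 12 groups of 10 libraries checked, 6 members in knockout and 6 in wild-type islets, 2 held a library far from the others by Dixon's criterion at its 95% critical value. Chance meets it in about 1 in 20 groups only where values are normally distributed. The check used normalized reads without a log, and the log2 scale of the fits was not checked, so the flags depend on the scale. P2ry1 stood at 2131.4 normalized reads in wild-type library 19, with the next wild-type library at 915.5, a gap of 0.633 of the group's range, while knockout libraries reached 936. P2ry2 stood at 67.9 normalized reads in wild-type library 20, with the next at 33.0, a gap of 0.577 of the range, while knockout libraries reached 59.7. No cause was tested for either.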

How the results depend on the processing

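Limits: P2ry2 and P2ry13 rest on few reads, wild-type columns carry no sample number, and the deleted part of P2ry14 is not given, so depth and labels limit what can be said of them. No paired analysis was possible because the wild-type columns carry the numbers 11 to 20 and not the replicate numbers of the labels. Nor do the labels state that equal replicate numbers in the groups mark matched libraries. The mean of P2ry14 stayed lower in knockout islets with log values (-1.97) and with any library left out (difference between -107.3 and -87.0). Members called were 1 in place of 0, P2ry14 each time, with the acinar covariate, with DESeq2 and, among fits leaving 1 library out (0 to 1), without knockout replicate 5. Genes called, 49 in the report, were 29 with a mean of at least 100, 163 with library weights, 75 with the acinar covariate, 137 with DESeq2 and 43 with edgeR. With 1 library left out they were 27 to 73, being 27 without knockout replicate 4, 32 without knockout replicate 8 and 30 without wild-type library 19. Pathway genes called, 0 in the report, were 2 with library weights (Itpr1 and Rgs3), 2 with DESeq2 (Itpr1 and Rgs10), 1 with the acinar and 1 with the endothelial covariate, and 0 to 1 with 1 library left out, the 1 being Itpr1. Rgs3 and Rgs10 were named after their values were seen. Marker relations called, 5 in the report, were 1 without removal of group means, 3 with a pseudocount of 10 and 3 to 7 with 1 library left out, the 3 without knockout replicates 1, 3, 7, 8, 9 or 10 or wild-type libraries 17 or 19. Log2 fold changes that changed sign, none of them past the threshold, were those of P2ry1 with library weights (0.11), the acinar covariate (0.037), the macrophage covariate (0.18) and 1 library left out (-0.16 to 0.21), P2ry2 with edgeR and DESeq2 (0.11 each), P2ry12 with quantile normalization (-0.016), library weights (-0.12), edgeR (-0.14), DESeq2 (-0.13) and 1 library left out (-0.14 to 0.18), and P2ry13 with library weights (-0.092). With the acinar score removed from both sides, 5 marker relations passed, the P2ry2 relation with duct markers among them. The causes were not tested.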
